A study of Mus musculus with 4 samples.

Results

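Conventional type 1 dendritic cells (cDC1) are described here among the leukocytes of mouse melanomas. They were chosen by their own transcripts. A cell was taken as cDC1 when it held at least 2 unique molecular identifiers (UMIs, each marking 1 captured RNA molecule) of Xcr1 and Clec9a together, no UMI of Cd3d, Cd3e, Cd3g or Fscn1, and at most 1 UMI of C1qa, C1qb and C1qc together. The rule took 384 of 25954 kept cells (1.48%). Because Xcr1 and Clec9a chose the cells, their levels support nothing here. The tumours were B16-GP33 melanomas, grown under the skin of the right flank of C57BL/6 mice. CD45.2+ leukocytes that excluded propidium iodide, a dye that enters dead cells, were sorted and captured in droplets for 10x single-cell sequencing. Mice received control IgG, an antibody to PD-1, an antibody to PSGL-1, or both antibodies together (the combination), each at 200 ug on days 8, 10 and 12, and tumours were taken on day 18. All groups carried the same tumour line, and no other allele or agent is named in the labels. Each group was 1 library, and how many mice a library holds is not given in the sources used here.

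cDC1 are a dendritic cell lineage that depends on the transcription factors IRF8 and BATF3 and on the growth factor FLT3 ligand. They take up material from dead cells, in part through CLEC9A, a receptor for exposed actin filaments, and present peptides from it on MHC class I to CD8 T cells, which is called cross-presentation. XCR1 is the receptor for XCL1, a chemokine of activated CD8 T cells and NK cells. In tumours cDC1 are known as a source of IL-12 and of CXCL9 and CXCL10, which draw T cells that carry CXCR3.

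The stretches upstream of Xcr1 (chr9:123862030-123862279, minus strand) and Clec9a (chr6:129408612-129408861, plus strand) are shown because these genes chose the cells. Those of Gbp2 (chr3:142620413-142620662, plus strand), Cxcl9 (chr5:92328080-92328329, minus strand) and Cxcl10 (chr5:92348890-92349139, minus strand) are shown because the levels of these interferon-inducible genes depended on which of the gated cells were counted. Each is the 250 bases before the gene's start, from RefSeq on GRCm38.p6, the assembly also called mm10. Capitals would mark a match to the interferon-gamma activated site, TTCNNNGAA, which reads the same on both strands.
Xcr1: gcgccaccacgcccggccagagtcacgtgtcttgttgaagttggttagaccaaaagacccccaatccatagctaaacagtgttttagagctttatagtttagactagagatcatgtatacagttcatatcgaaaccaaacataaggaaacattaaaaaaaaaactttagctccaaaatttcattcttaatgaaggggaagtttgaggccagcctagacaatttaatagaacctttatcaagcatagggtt
Clec9a: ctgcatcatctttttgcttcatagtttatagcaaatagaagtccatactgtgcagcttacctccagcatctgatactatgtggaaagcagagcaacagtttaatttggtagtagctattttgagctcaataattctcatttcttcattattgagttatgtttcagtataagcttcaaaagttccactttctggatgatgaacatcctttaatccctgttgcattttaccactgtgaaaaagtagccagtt
Gbp2: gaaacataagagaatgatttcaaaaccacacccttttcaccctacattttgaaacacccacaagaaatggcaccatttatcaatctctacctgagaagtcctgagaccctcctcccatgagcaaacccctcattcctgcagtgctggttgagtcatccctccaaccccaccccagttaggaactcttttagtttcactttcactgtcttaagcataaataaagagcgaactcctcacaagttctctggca
Cxcl9: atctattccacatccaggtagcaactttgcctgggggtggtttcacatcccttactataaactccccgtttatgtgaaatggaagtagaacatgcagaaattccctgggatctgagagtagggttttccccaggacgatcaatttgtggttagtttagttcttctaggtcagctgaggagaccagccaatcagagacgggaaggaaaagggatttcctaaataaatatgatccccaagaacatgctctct
Cxcl10: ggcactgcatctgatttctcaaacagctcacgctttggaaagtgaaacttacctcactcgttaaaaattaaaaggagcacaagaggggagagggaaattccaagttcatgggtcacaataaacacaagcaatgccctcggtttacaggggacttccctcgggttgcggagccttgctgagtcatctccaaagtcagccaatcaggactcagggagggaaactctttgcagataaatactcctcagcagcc

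TTCNNNGAA was found in none of the 5 stretches, and in 7.02% of 32851 RefSeq promoters of the same length. No match says only that these letters are not in the window.

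Where 4 values follow each other, the first is from IgG, the second from anti-PD-1, the third from anti-PSGL-1 and the last from the combination. The libraries held 4614 to 9733 barcodes and 40913129 to 53303195 UMIs. The cDC1 numbered 161, 53, 122 and 48, with a median of 9634, 11912, 12725 and 13108 UMIs per cell, and together held 1527945, 608213, 1599607 and 661848 UMIs. A level is the UMIs of a gene per 1000000 UMIs of the gated cells of a library (CPM), so levels in anti-PD-1 and in the combination rest on the fewest molecules. No barcode of a cDC1 was shared between libraries, and each pair of libraries shared 5 to 13 kept barcodes.

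The label was checked against markers the rule did not use. Irf8, the transcription factor that fixes this lineage, was detected in 98.8%, 96.2%, 98.4% and 100% of cDC1, but also in 35.5%, 60.6%, 39.9% and 60.6% of T cells gated on Cd3 transcripts and in 45.6%, 68.8%, 42.9% and 64.5% of cDC2-gated cells (defined with their shares). Batf3, its partner, was detected in 64.6%, 75.5%, 75.4% and 77.1% of cDC1 and in 2.82%, 1.54%, 3.27% and 1.21% of T-gated cells, which should lack it, at median depths of 3602, 7945, 6138 and 9661 UMIs. Of the 8 T cell markers measured, Cd3d, Cd3e and Cd3g were at 0 by the rule and the sum was 6.04 to 35.3 CPM. The B cell markers summed to 0 to 15.1 CPM and the melanoma markers to 4.58 to 19.6 CPM. Batf3 and these low sums went with the label in the gated cells as a whole. Not all sums were low. The 10 monocyte markers summed to 2009, 3436, 1597 and 3436 CPM in the gated cells. The 9 plasmacytoid dendritic cell markers summed to 846, 829, 264 and 296 CPM. Both were higher in the gated cells that held Clec9a and no Xcr1 than in those with Xcr1.

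Of the 384 cells, 291 held UMIs of both Xcr1 and Clec9a, 30 held Xcr1 alone and 63 held Clec9a alone. The Clec9a-only cells were 27 of 161 (16.8%), 15 of 53 (28.3%), 8 of 122 (6.56%) and 13 of 48 (27.1%), so their share was highest in both libraries that received anti-PD-1. Siglech, a surface lectin of plasmacytoid dendritic cells, was detected in 11, 3, 1 and 0 of them, 15 in all, and in 2 of the 321 cells with Xcr1. At least 3 UMIs of the monocyte genes Ly6c2 and Fcgr1 together were held by 10, 11, 1 and 10 of them. Among the cells with Xcr1, 3 of 134, 8 of 38, 3 of 114 and 7 of 35 held as many. In IgG these cells and those with Siglech overlapped: leaving out both kinds took all cDC1 from 161 to 145. The counts are therefore not separate sets of cells there. There too the share with at least 3 UMIs of Ly6c2 and Fcgr1 was larger in both libraries with anti-PD-1 than in IgG or anti-PSGL-1. Requiring Xcr1 therefore does not remove all such cells.

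Summed over 9 plasmacytoid dendritic cell markers, the Clec9a-only cells reached 4395, 2145, 1765 and 601 CPM and the cells with Xcr1 251, 346, 192 and 206 CPM. Summed over 10 monocyte markers they reached 3456, 8763, 1943 and 9331 CPM against 1766, 1483, 1580.1 and 1687 CPM. The Clec9a-only cells were the higher set for both lists in every library. T-gated cells reached 2106, 2497, 2136 and 2481 CPM on the monocyte markers, above the Clec9a-only cells in anti-PSGL-1. The monocyte sum thus does not set those cells apart in that library. Of the plasmacytoid markers Klk1 and Atp1b1 were at 0 in the IgG cells with Xcr1, and 6 of the 9, Siglech among them, were at 0 in those of anti-PD-1. In the Clec9a-only cells 0, 1, 0 and 6 of the 9 were at 0. In the combination Siglech was among the 6, and only Bst2, Tcf4 and Runx2 gave the sum. Of the 10 monocyte markers 5, 1, 4 and 0 were at 0 in the Clec9a-only cells. In the mouse Clec9a is also known from plasmacytoid dendritic cells and dendritic cell precursors. What the Clec9a-only cells are was not tested. Most differences between libraries are therefore given for all 384 cells and also for the 321 with Xcr1, a subset taken after the data were seen.

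**Figure D1:**
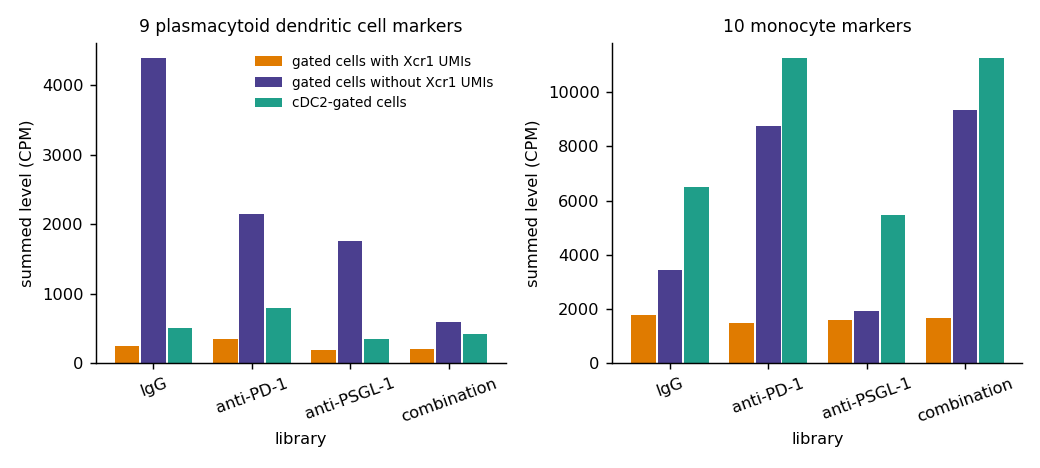
Summed level in CPM of 9 plasmacytoid dendritic cell markers (left) and 10 monocyte markers (right) in each library, for gated cells with Xcr1 UMIs, gated cells without, and cDC2-gated cells; each bar is 1 sum with no replicate. The gated cells without Xcr1 stand above those with Xcr1 in every library, at 601 to 4395 CPM for the plasmacytoid markers and 1943 to 9331 CPM for the monocyte markers.

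Cells just inside the rule, with exactly 2 UMIs of Xcr1 and Clec9a, numbered 33, 10, 19 and 13. Their level of Wdfy4, which encodes a protein needed for cross-presentation by cDC1, was 331, 119, 439 and 191 CPM. Cells just outside, with 1 UMI, numbered 99, 60, 22 and 32 and held Wdfy4 at 156, 69.1, 199.7 and 104 CPM. Cells with 3 or more UMIs held it at 610.5, 496, 523 and 663 CPM.

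cDC1 made up 1.70% of kept cells in IgG (exact 95% binomial interval 1.45% to 1.98%), 1.01% in anti-PD-1 (0.759% to 1.32%), 1.78% in anti-PSGL-1 (1.48% to 2.12%) and 1.10% in the combination (0.809% to 1.45%). Both libraries with anti-PD-1 were low, and the interval of the combination nearly met that of IgG. These intervals cover counting error only, and with 1 library per group no difference between treatments could be tested. Fewer cDC1 and more of other leukocytes cannot be told apart in a share: T-gated cells made up 35.6%, 30.9%, 39.1% and 47.2% of kept cells. With Xcr1 required the cDC1 shares were 1.42%, 0.725%, 1.66% and 0.799%. With kept cells of at least 2000 UMIs thinned to 2000 UMIs they were 0.882%, 0.364%, 0.550% and 0.400%, and IgG was then above anti-PSGL-1. Cells under 2000 UMIs were left out, which took the kept cells from 9465, 5238, 6869 and 4382 to 7709, 4949, 6367 and 4251. The largest part was lost in IgG.

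Type 2 conventional dendritic cells (cDC2), the lineage known for presenting to CD4 T cells, were gated by at least 2 UMIs of Cd209a and Clec10a with none of Xcr1, Clec9a, Siglech or Fscn1. They numbered 364, 109, 224 and 93. cDC1 were 30.7%, 32.7%, 35.3% and 34.0% of both gates together, with intervals that overlapped throughout. Migratory dendritic cells, gated by Fscn1 and Ccr7, numbered 98, 32, 92 and 7, or 1.04%, 0.611%, 1.34% and 0.160% of kept cells, lowest in the combination.

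**Figure D2:**
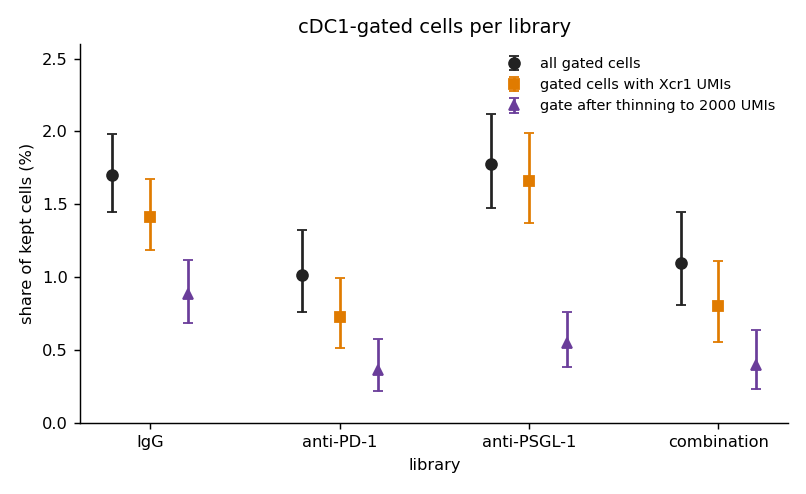
Share of kept cells, in percent, that met the cDC1 rule in each library, for all gated cells and for gated cells with Xcr1 UMIs. A further set is after thinning to 2000 UMIs, as a share of the kept cells with at least 2000 UMIs. Bars are exact 95% binomial intervals. All gated cells are 1.70% in IgG, 1.01% in anti-PD-1, 1.78% in anti-PSGL-1 and 1.10% in the combination.

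The comparison with cDC2-gated cells asks which genes set cDC1 apart, with 4 libraries on each side. UMIs were summed per library and cell group and tested with edgeR's quasi-likelihood test, with the library as a block and the genes of both gates left out. Of 7207 genes tested, 1068 were higher in cDC1 (14.8%) and 1252 lower (17.4%) at an adjusted p under 0.05. The libraries differ in treatment, so a p-value here measures whether a difference recurs over the 4 treatments. Genes in the identity list were mostly higher in cDC1: of 41 listed, 38 were tested, 35 rose and 2 fell. Their median log2 fold change was 2.82 against 0.02 over all genes tested. Xcr1 and Clec9a, which belong to this list, set the groups apart by the gates, and the list was chosen with earlier results known. The direction of the other identity genes is therefore not independent of the gates.

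Among the transcription factors, Irf8 stood at 1276, 1458, 1358 and 1446 CPM in cDC1 and at 175, 309, 110.2 and 273 CPM in cDC2-gated cells. The groups did not overlap (log2 fold change 2.80, SD over libraries 0.62, n = 4, edgeR adjusted p = 1.51e-06). Batf3 was at 179, 196, 127 and 139 CPM against 52.3, 37.9, 42.8 and 37.5 CPM, again without overlap (1.87, SD 0.34, adjusted p = 2.21e-06). Id2, an inhibitor that favours the conventional over the plasmacytoid fate, rose by 1.51 on the log2 scale, and Zbtb46, a factor shared by conventional dendritic cells, by 1.04.

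Surface receptors gave some of the widest gaps. Itgae, which encodes CD103, an integrin chain of tissue cDC1, was at 312, 276, 291 and 255 CPM in cDC1 and at 7.70, 2.05, 4.32 and 1.01 CPM in cDC2-gated cells (log2 fold change 5.98, SD over libraries 0.80, n = 4, edgeR adjusted p = 2.95e-08). Tlr3, the endosomal sensor of double-stranded RNA, was at 72.0, 72.3, 67.5 and 65.0 CPM against 1.54, 1.02, 2.16 and 2.03 CPM (5.26, SD 0.36, adjusted p = 9.17e-08), and lay within a narrow range over the 4 treatments. Cadm1, an adhesion molecule of cDC1, was at 77.2, 132, 114 and 168 CPM against 2.31, 1.02, 1.73 and 4.05 CPM (5.62, SD 0.62, adjusted p = 4.57e-08). Neither Tlr3 nor Cadm1 overlapped between the groups. Cxcr3, the receptor for CXCL9 and CXCL10, was at 44.5, 59.2, 38.1 and 40.8 CPM in cDC1 and at 1.54, 1.02, 0 and 0 CPM in cDC2-gated cells. Tlr11, a sensor of profilin, Btla, an inhibitory receptor, and Ly75, the uptake receptor DEC-205, rose by 3.14, 3.18 and 2.89 on the log2 scale.

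For antigen handling, Wdfy4 was at 564, 439, 513 and 551 CPM against 66.6, 52.2, 69.6 and 80.1 CPM (log2 fold change 2.97, SD over libraries 0.14, n = 4, edgeR adjusted p = 2.09e-08). Naaa, a lysosomal amidase, stood at 1308, 1396, 1395 and 1582 CPM against 429, 414, 416 and 473 CPM (1.72, SD 0.07, adjusted p = 5.63e-08). Both were separate in every library. Ppt1, a lysosomal thioesterase, Rab7b, a small GTPase of late endosomes, and Cst3, which encodes the protease inhibitor cystatin C, rose by 3.21, 2.85 and 2.19. Tap1, a subunit of the peptide transporter, and Psmb8, an immunoproteasome subunit, rose by 0.56 and 0.62, while B2m, the light chain of MHC class I, fell by 0.41 on the log2 scale (edgeR adjusted p = 0.000718). Of 23 tested genes of cross-presentation and uptake, 10 were higher and 5 lower, beside 14.8% and 17.4% over all genes.

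By size of change, several genes were at 0 in all 4 sums of cDC2-gated cells. Gcsam, a signalling adapter known from germinal centre B cells, was at 109, 65.8, 80.0 and 72.5 CPM in cDC1, at least 199-fold higher than a floor of 3 counts over all cDC2-gated cells. Gramd2, Ttc39a, Clnk and Homer2 were at least 44.8-fold, 43.8-fold, 37.5-fold and 34.9-fold higher by the same floor. Rasgrp3, a Ras activator, Fndc5, the precursor of irisin, Plpp1, a lipid phosphatase, Ffar4, a fatty acid receptor, and Snx22, a sorting nexin, rose by 6.32, 6.08, 6.01, 5.85 and 5.71 on the log2 scale.

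**Figure D3:**
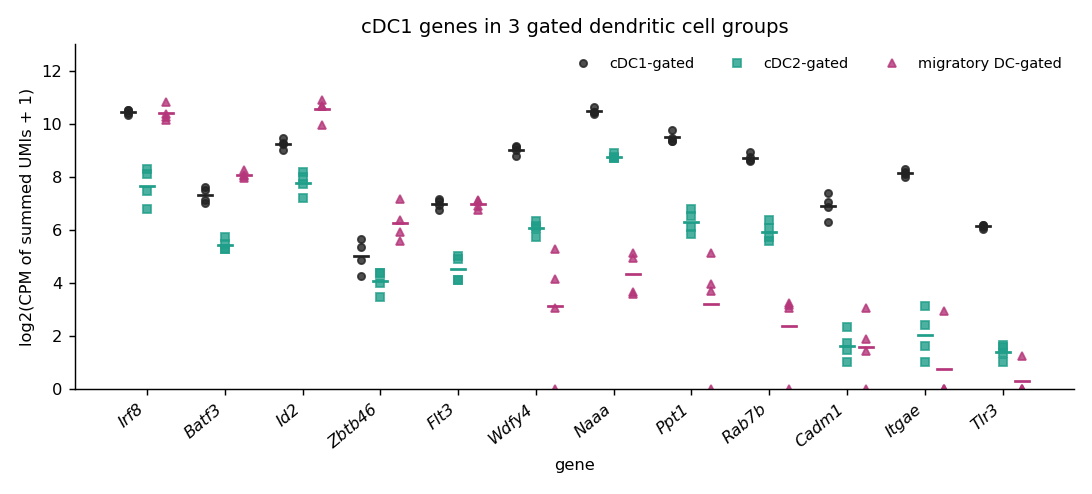
Level as log2(CPM + 1) of 12 genes in cDC1-gated, cDC2-gated and migratory dendritic cell-gated cells; each point is 1 library and each short line the mean of 4. Wdfy4, Naaa, Itgae and Tlr3 are highest in cDC1-gated cells in every library, while Irf8 in migratory cells lies at 1319, 1819, 1137 and 1203 CPM, on both sides of the cDC1 values.

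MHC class II genes lay close to level between the lineages. H2-Aa, a chain of the I-A molecule, was at 9742, 9737, 8772 and 9004 CPM in cDC1 and 10135, 8594, 9243 and 9086 CPM in cDC2-gated cells, with overlapping groups (log2 fold change 0.02, edgeR adjusted p = 0.808). Cd74, the invariant chain, and Ciita, the activator of this pathway, did not pass the test either (adjusted p = 0.512 and 0.793). Of 13 tested genes 2 were higher and 4 lower, with a median of 0.03, beside 14.8% higher and 17.4% lower over all genes. H2-DMb2, a chain of the peptide exchange factor, was at 113, 110.2, 117 and 104 CPM against 206, 177, 268 and 208 CPM (-0.94, SD 0.22, adjusted p = 5.94e-05).

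Genes of the type I interferon response were lower in cDC1. Of 26 listed, 25 were tested, none rose and 21 fell, with a median log2 fold change of -1.61. With the 321 cells with Xcr1 in place of all cDC1, 21 of 24 fell, with a median of -2.10, and without the library block 14 of 25 fell. Ifitm3, a membrane protein that blocks virus entry, was at 711, 1777, 541 and 1366 CPM in cDC1 and 5530.4, 6178, 3546 and 5057 CPM in cDC2-gated cells (log2 fold change -2.33, SD over libraries 0.58, n = 4, edgeR adjusted p = 2.18e-06). Isg15, an interferon-induced ubiquitin-like protein, was at 147, 446, 57.5 and 340.0 CPM against 746, 1019.6, 249 and 703 CPM (-1.65, SD 0.64, adjusted p = 5.39e-05). Both genes were lowest in anti-PSGL-1 and highest in anti-PD-1 in each cell group, and cDC1 were the lower group within every library. Irf7 and Bst2, which act in the interferon response and are high in plasmacytoid dendritic cells, fell, with log2 fold changes of -0.41 and -0.30.

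Monocyte and macrophage markers moved with this result. The 10 monocyte markers summed to 6486, 11262, 5462 and 11263 CPM in cDC2-gated cells, where none was at 0 in any library, and to 2009, 3436, 1597 and 3436 CPM in cDC1, where F13a1 was at 0 in IgG and anti-PD-1. The 10 macrophage markers summed to 826 to 1199 CPM in cDC2-gated cells and to 204 to 449 CPM in cDC1. Mrc1 and Fn1, which are genes of macrophages and monocytes, fell, with log2 fold changes of -5.45 and -4.68. The part of such cells in the difference was not tested.

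**Figure D4:**
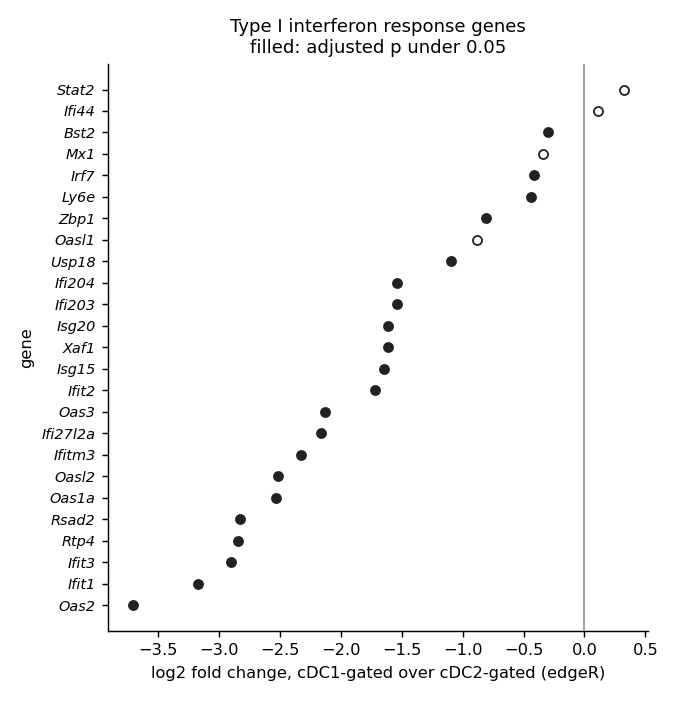
Log2 fold change of 25 type I interferon response genes in cDC1-gated over cDC2-gated cells, from edgeR with 4 libraries a group; filled points have an adjusted p under 0.05. All 21 filled points lie below 0, with Isg15 at -1.65 and Ifitm3 at -2.33.

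Of 24 tested interferon-gamma response genes 4 were higher in cDC1 and 13 lower, beside 14.8% and 17.4% over all genes. Without the library block 3 were higher and 2 lower. Cxcl10 was at 72.6, 169, 57.5 and 502 CPM in cDC1 against 706, 1966, 352 and 1179.5 CPM (log2 fold change -2.62, SD over libraries 1.03, n = 4, edgeR adjusted p = 5.03e-05). Cxcl9 was at 264, 566, 206 and 938 CPM against 435, 688, 341 and 747 CPM and did not pass (adjusted p = 0.110). Costimulation and maturation genes were 3 higher and 16 lower of 24. Cd40, the receptor for help from CD4 T cells, was at 25.5, 42.7, 22.5 and 30.2 CPM against 85.4, 133, 80.4 and 145 CPM (-1.84, SD 0.27, adjusted p = 3.16e-06), without overlap. Il12b, the p40 chain of IL-12, rose by 2.52 (adjusted p = 0.00454), but with an SD over libraries of 2.63: in the combination it stood at 4.53 CPM in cDC1 and 9.12 CPM in cDC2-gated cells.

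Hypoxia and glycolysis genes were 0 higher and 14 lower of 18. Hilpda, a lipid droplet protein of that list, was at 28.8, 52.6, 46.9 and 118 CPM in cDC1 against 430.2, 451, 469 and 373 CPM (log2 fold change -2.97, SD over libraries 0.94, n = 4, edgeR adjusted p = 1.01e-05). Cell cycle genes were 15 higher and 1 lower of 24, and without the anti-PSGL-1 library 8 higher and 1 lower of 21. Stmn1, a regulator of microtubules, rose by 0.89, while the proliferation genes Mki67 and Top2a did not pass (adjusted p = 0.0545 and 0.0739). Pgf, a growth factor for vessels, was at 0 in all cDC1 and at 42.7, 39.9, 54.9 and 62.8 CPM in cDC2-gated cells, at least 72.3-fold lower in cDC1 by a floor of 3 counts over the group.

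The comparison with migratory cells sets cDC1 against dendritic cells of the maturation program, which switch on Fscn1 and Ccr7 and leave for the lymph node and can come from either conventional lineage. Of 5424 genes tested, 1263 were higher in cDC1 (23.3%) and 1270 lower (23.4%), by the same edgeR test. Fscn1 and Ccr7 defined the gates and were left out. The combination held 7 migratory cells, so its sum is the least precise.

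Costimulation and maturation genes were 0 higher and 26 lower of 27 tested, with a median log2 fold change of -3.50 against 0.0017 over all genes. Fscn1 and Ccr7, which belong to this list, set the groups apart by the gates. The direction of the other genes of the program is therefore not independent of the gates. Ccl22, a chemokine that draws regulatory T cells, was at 19.0, 13.2, 96.9 and 31.7 CPM in cDC1 and 1571, 521, 1658 and 1693 CPM in migratory cells (log2 fold change -5.38, SD over libraries 0.94, n = 4, edgeR adjusted p = 4.08e-09). Il12b was at 17.7, 74.0, 48.1 and 4.53 CPM against 928, 719.7, 1352 and 981 CPM (-5.09, SD 1.75, adjusted p = 5.87e-08). Neither gene overlapped between the groups. Cd40, Cd80, Cd86 and Cd83, which carry or receive costimulatory signals, fell, with log2 fold changes of -3.76, -2.30, -0.97 and -0.68.

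The transcripts of both antibody pathways were measured too. Cd274, which encodes PD-L1, the ligand of PD-1, was at 61.5, 155, 78.1 and 165 CPM in cDC1 against 461, 575, 299 and 304 CPM in migratory cells (log2 fold change -2.13, SD over libraries 0.82, n = 4, edgeR adjusted p = 3.07e-06). Selplg, which encodes PSGL-1, was at 327, 296, 266 and 269 CPM against 628, 799, 570.4 and 514 CPM, without overlap (-1.25, SD 0.23, adjusted p = 9.41e-06). Against cDC2-gated cells, at 243, 289.7, 239 and 251 CPM, Selplg did not pass (adjusted p = 0.146). The antibody binds the protein, so transcript levels do not check the treatment.

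Some cDC1 genes were close to level in migratory cells and others were nearly absent. Irf8 did not pass (log2 fold change -0.11, edgeR adjusted p = 0.536), nor did Flt3, the receptor for FLT3 ligand (adjusted p = 0.481). Batf3 and Id2 were lower in cDC1, with log2 fold changes of -0.88 and -1.47. Naaa was at 33.7, 10.8, 29.4 and 11.7 CPM in migratory cells (log2 fold change 5.62, SD over libraries 0.90, n = 4, edgeR adjusted p = 2.89e-10), Wdfy4 at 16.8, 7.23, 37.4 and 0 CPM (4.48, SD 2.30, adjusted p = 2.08e-08) and Itgae at 0, 0, 6.68 and 0 CPM (6.47, SD 1.45, adjusted p = 9.26e-09). Tlr3, Cxcr3, Rab7b and Cadm1 rose in cDC1 by 6.44, 5.77, 5.67 and 4.97. Qpct, Vwf and Sema4f were at 0 in all migratory sums, and cDC1 were at least 41.0-fold, 22.1-fold and 15.8-fold higher by a floor of 3 counts over the group.

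MHC class II genes were 9 higher and 3 lower of 14 against migratory cells, beside 23.3% and 23.4% over all genes. H2-Ab1, the other chain of I-A, was at 11607, 11585, 10462 and 11657 CPM in cDC1 against 3031, 2857, 1919.6 and 2056 CPM (log2 fold change 2.08, SD over libraries 0.29, n = 4, edgeR adjusted p = 7.51e-09). Ciita rose by 1.63, while B2m fell, with a log2 fold change of -1.45.

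The treatment comparisons set the cDC1 of 1 library against those of another. With 1 library per group there is no test and no replicate check, and all values compare these libraries. A gene was past the fold when it reached 50 CPM in either library and its ratio was at least 1.5 or at most the inverse. Ratios carry exact conditional 95% intervals for counting error. In anti-PD-1 against IgG, 12% of 2752 genes were higher and 4.07% lower, and in the cells with Xcr1 10.2% were higher and 5.69% lower. In anti-PSGL-1 against IgG the shares were 3.62% higher and 3.31% lower, and 4.03% and 3.01% with Xcr1. In the combination against IgG they were 12.9% and 3.41%, and 9.44% and 4.04% with Xcr1. The 3 comparisons share the IgG library, so their likeness is not a result.

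Interferon-gamma response genes were higher in the anti-PD-1 cDC1. Of 28 listed, 20 reached the level, 12 were past 1.5-fold higher and 0 lower, with a median log2 ratio of 1.04 against 0.06 over all genes. With Xcr1, 7 of 16 were higher and 0 lower, with a median of 0.40. That set still held cells with at least 3 UMIs of Ly6c2 and Fcgr1, 8 of 38 in anti-PD-1 and 3 of 134 in IgG. Irf1, an early target factor of the pathway, was at 122 and 242 CPM in IgG and anti-PD-1 (ratio 1.97, 1.58 to 2.46; with Xcr1 1.78, 1.36 to 2.31). Iigp1, an interferon-inducible GTPase, was at 56.3 and 219 CPM (ratio 3.89, 2.94 to 5.16; with Xcr1 2.91, 2.12 to 3.98). Both genes and Cd274, with ratios of 2.51 and 1.61, were past the fold in both sets of cells.

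Other interferon genes were past the fold in all cells and not in those with Xcr1. Gbp2, a guanylate-binding protein that attacks the vacuoles of pathogens, was at 45.8 and 312 CPM (ratio 6.82, 5.16 to 9.10), and at 46.6 and 27 CPM with Xcr1 (ratio 0.578, 0.283 to 1.09). The 15 Clec9a-only cells of anti-PD-1 held 178 of its 190 UMIs. Cxcl9 was at 264 and 566 CPM (ratio 2.14, 1.85 to 2.48), and at 289.6 and 308 CPM with Xcr1 (ratio 1.06, 0.868 to 1.30). Cxcl10, Isg15 and Ifi27l2a had ratios of 2.33, 3.04 and 4.63 in all cells and 1.20, 1.03 and 1.04 with Xcr1. Of the type I interferon list 10 of 11 were higher in all cells and 6 of 10 with Xcr1, among them Ifi204, a sensor of DNA, at 32.9 and 101 CPM (ratio 3.08, 1.98 to 4.79).

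Maturation genes were 9 higher of 15 in anti-PD-1, and 7 of 12 with Xcr1. Il12b was at 17.7 and 74.0 CPM (ratio 4.19, 2.54 to 7.02; with Xcr1 4.99). It was found in 9 of 161 IgG and 6 of 53 anti-PD-1 cells, and 1 cell gave 23 of the 45 anti-PD-1 UMIs. Tnf, an inflammatory cytokine, was at 9.16 and 62.5 CPM (ratio 6.82; with Xcr1 9.12), with 15 of 38 UMIs in 1 cell. Traf1, a signal adapter of TNF receptors, was spread over more cells, 94 of 161 and 38 of 53, at 148 and 275 CPM (ratio 1.86, 1.51 to 2.28; with Xcr1 1.57). Of the identity list 4 of 28 were higher and 2 lower, near the 12% and 4.07% over all genes. With Xcr1 they were 7 of 31 and 0, beside 10.2% and 5.69% over all genes. Cadm1 and Ifi205, an interferon-inducible protein of this lineage, had ratios of 1.70 and 1.63, and 2.05 and 1.69 with Xcr1.

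By size, the genes most higher in anti-PD-1 included several with few or no UMIs in the cells with Xcr1. Clec4a3, a C-type lectin, was at 1 UMI in IgG and 36 UMIs in anti-PD-1 (ratio 90.4, 15.2 to 3670.1), and Lpl, a lipase, at 8 and 94 UMIs, 64 of them in 1 cell. Both were at 0 UMIs in the anti-PD-1 cells with Xcr1. Il1rn, the antagonist of the IL-1 receptor, and Clec4n, the lectin Dectin-2, had ratios of 11.8 and 12.0, and 0.420 and 0.327 with Xcr1. Ccl5, a T cell chemokine, had a ratio of 8.82, with 115 of 158 UMIs in 1 cell, and 1.36 with Xcr1. Mmp12, a protease of macrophages, had 2 and 37 UMIs and 1 and 2 with Xcr1.

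Of the genes lower in anti-PD-1, Pgk1 was lower in T-gated cells of that library too, and Kcnq1ot1 was not. Pgk1, a glycolytic enzyme, was at 52.4, 9.86, 88.8 and 52.9 CPM in cDC1 (anti-PD-1 ratio 0.188, 0.0671 to 0.428; with Xcr1 0.159, 0.0422 to 0.424) and at 78.7, 29.6, 95.6 and 95.1 CPM in T-gated cells, lowest in anti-PD-1 in both. Kcnq1ot1, a long non-coding RNA, was at 78.5, 19.7, 48.8 and 95.2 CPM in cDC1 (anti-PD-1 ratio 0.251; with Xcr1 0.214) and 103, 109.7, 87.6 and 82.7 CPM in T-gated cells. The part of a library-wide difference in these genes was not tested.

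In anti-PSGL-1 the interferon genes that passed the fold were mostly lower. Of the interferon-gamma list 1 of 16 was higher and 3 lower, and with Xcr1 0 were higher and 6 lower. Iigp1 was at 56.3 and 19.4 CPM in IgG and anti-PSGL-1 (ratio 0.344, 0.221 to 0.525; with Xcr1 0.214, 0.126 to 0.349). Irf1 was at 122 and 68.8 CPM (ratio 0.562, 0.440 to 0.715; with Xcr1 0.530, 0.407 to 0.687), found in 66 of 161 and 41 of 122 cells. Isg15 was at 147 and 57.5 CPM (ratio 0.392, 0.304 to 0.502; with Xcr1 0.378, 0.286 to 0.496) and in T-gated cells at 178 and 117 CPM. Irf7, the factor that amplifies type I interferon, was at 110.0 and 46.9 CPM (ratio 0.426, 0.320 to 0.563; with Xcr1 0.464, 0.343 to 0.623). Cxcl9 had a ratio of 0.780 in all cells and 0.545, 0.462 to 0.642 with Xcr1.

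Cell cycle genes were higher in the anti-PSGL-1 cDC1: 7 of 12 were past 1.5-fold and 0 lower, with a median log2 ratio of 0.80, and 8 of 12 with Xcr1. Top2a, which untangles DNA, was at 30.1, 47.7, 104 and 69.5 CPM over the 4 libraries (ratio to IgG 3.45, 2.47 to 4.89; with Xcr1 5.04, 3.28 to 8.04). Mki67, the proliferation antigen, was at 26.2, 41.1, 90.6 and 48.3 CPM (ratio 3.46, 2.43 to 5.05; with Xcr1 3.91, 2.62 to 6.02). A UMI of either gene was held by 13.7%, 17.0%, 27% and 20.8% of cDC1, and by 7.45%, 9.43%, 14.8% and 12.5% once cells were thinned to 2000 UMIs. Anti-PSGL-1 was highest in both. In T-gated cells the share before thinning was 30.5%, 44.5%, 36.7% and 50.8%, highest in the combination.

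Histone and stress genes also differed in that library. Hist1h2ap, a replication-dependent histone, was at 62.2, 23.0, 441 and 66.5 CPM in cDC1 (ratio to IgG 7.09; with Xcr1 11.4) and 747, 143, 1234 and 668 CPM in T-gated cells, highest in anti-PSGL-1 in both, and the part of a library-wide difference was not tested. Of the dissociation stress list 8 of 18 were higher and 0 lower, also with Xcr1. Hspa1a, a heat shock chaperone, was at 119.8, 399.5, 413 and 129.9 CPM (ratio 3.45, 2.92 to 4.09; with Xcr1 3.30), with 185 of 661 UMIs in 1 cell, and at 239, 194, 253 and 119 CPM in T-gated cells. Gpr183, the oxysterol receptor that positions dendritic cells, was at 60.9 and 131 CPM (ratio 2.15, 1.67 to 2.77; with Xcr1 2.45, 1.85 to 3.27). Ccl22 had a ratio of 5.11, and 2.45 with Xcr1. Cxcl2, a neutrophil chemokine, had a ratio of 5.0, with 511 of 597 UMIs in 1 cell, and 0.933 with Xcr1. None of the 30 measured identity genes was past the fold in either direction. This is near the share over all genes, 3.62% higher and 3.31% lower.

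The genes most lower in anti-PSGL-1 included markers of plasmacytoid cells and monocytes. Siglech, Klk1 and Ly6d, which plasmacytoid dendritic cells express, held 120, 94 and 142 UMIs in IgG and 22, 17 and 5 in anti-PSGL-1. In the IgG cells with Xcr1 they held 1, 0 and 5 UMIs. Ly6c2 had a ratio of 0.291 in all cells and 1.10 with Xcr1.

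In the combination 14 of 22 interferon-gamma genes were higher than in IgG and 0 lower, with a median log2 ratio of 1.29. With Xcr1, 3 of 17 were higher and 1 lower, with a median of 0.28. Gbp2 was at 45.8, 312, 76.9 and 548 CPM over the 4 libraries (ratio to IgG 12.0, 9.25 to 15.7) and at 46.6, 27, 43.2 and 168 CPM with Xcr1 (ratio 3.61, 2.57 to 5.10), where 45 of 86 UMIs were in 1 cell. Cxcl9 was at 264, 566, 206 and 938 CPM (ratio 3.56, 3.13 to 4.04) and at 289.6, 308, 158 and 507 CPM with Xcr1 (ratio 1.75, 1.49 to 2.06), highest in the combination in both sets.

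Before thinning, Cxcl9 was detected in 25.5%, 52.8%, 21.3% and 54.2% of all gated cDC1 and in 4.99%, 6.24%, 3.05% and 2.85% of T-gated cells. These shares include the Clec9a-only cells and differ in depth between libraries. Cxcl10 had a ratio of 6.91, 5.55 to 8.64, with 167 of 332 UMIs in 1 cell, and 0.647, 0.404 to 1.00 with Xcr1. Irf1, Iigp1 and Cd274 had ratios of 2.23, 2.17 and 2.68 in all cells and 1.22, 0.977 and 1.25 with Xcr1. Of the type I list 6 of 10 were higher and 1 lower in all cells, and 0 of 8 with Xcr1.

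**Figure D5:**
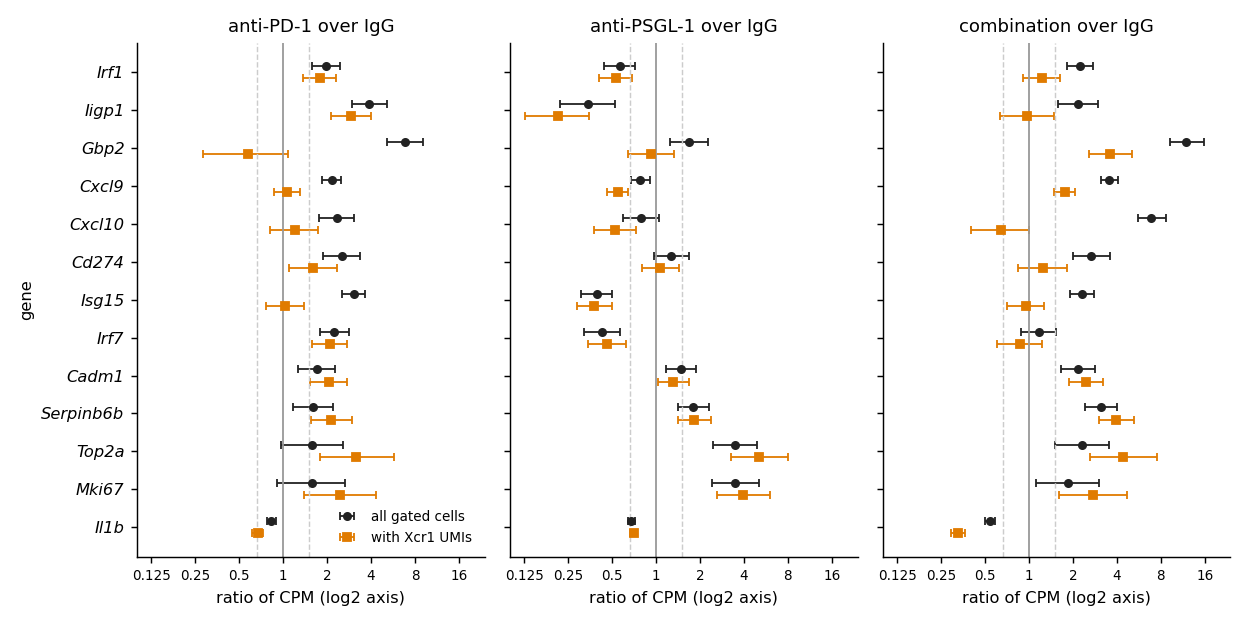
Ratio of CPM to the IgG library, on a log2 axis, for 13 genes chosen after their values were seen, in each treated library; circles are all gated cells, squares those with Xcr1 UMIs, bars are 95% intervals for counting error and dashed lines mark 1.5-fold. In anti-PD-1 Gbp2 moves from a ratio of 6.82 to 0.578 once Xcr1 is required, while in the combination Cadm1 is at 2.17 and 2.47 and Serpinb6b at 3.11 and 3.96.

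Several genes of the combination were past the fold in both sets of cells. Serpinb6b, a serpin, was at 70.0, 112, 126 and 218 CPM (ratio to IgG 3.11, 2.40 to 4.03; with Xcr1 3.96), found in 42 of 161 IgG and 24 of 48 combination cells. Serpinb9, which inhibits granzyme B, was at 74.0, 87.1, 80.0 and 177 CPM (ratio 2.39, 1.83 to 3.12; with Xcr1 2.23). Cadm1 had a ratio of 2.17, and 2.47, 1.89 to 3.24 with Xcr1. Top2a and Stmn1 had ratios of 2.31 and 1.54, and 4.41 and 2.18 with Xcr1. Of the cell cycle list 3 of 10 were higher and 0 lower in all cells, with a median log2 ratio of 0.55, and 10 of 13 and 0 with Xcr1, with a median of 0.76. Il1b, an inflammatory cytokine, was at 2329, 1932, 1579 and 1259 CPM (ratio 0.540, 0.501 to 0.583; with Xcr1 0.327, 0.293 to 0.364). T-gated cells, which should lack Il1b, held it at 527, 191, 553 and 129 CPM, also lowest in the combination, and the part of free RNA was not tested. B2m and H2-D1, a heavy chain of MHC class I, had ratios of 1.64 and 1.52, and 1.37 and 1.33 with Xcr1.

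The largest ratios of the combination rest on few cells. Nos2, the inducible nitric oxide synthase, had 1 UMI in IgG and 53 UMIs in 2 combination cells, and Inhba, a subunit of activin A, had 2 and 62 UMIs, 41 of them in 1 cell. With Xcr1 Nos2 had 0 and 14 and Inhba 1 and 12 UMIs. Ptgs2, the inducible cyclooxygenase, Clec4n and Lpl had ratios of 14.0, 13.7 and 15.0, and 2.56, 1.14 and 0.961 with Xcr1. Ccr7, the receptor for homing to lymph nodes, had 140, 50, 159 and 2 UMIs (ratio to IgG 0.0330, 0.00396 to 0.121; with Xcr1 0.0383, 0.00459 to 0.141), found in 12 of 161, 4 of 53, 12 of 122 and 2 of 48 cells. The highest single cell held 56, 33, 54 and 1 of these UMIs. Ly6d and Klk1 were at 0 in the combination, at least 20.5-fold and 13.6-fold lower than in IgG by a floor of 3 counts per library.

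Against anti-PD-1, 8.6% of 2860 genes were higher in the combination and 6.33% lower, and with Xcr1 10.9% and 8.09%. Il12b was at 74.0 and 4.53 CPM in anti-PD-1 and the combination (ratio 0.0613, 0.0122 to 0.191; with Xcr1 0.0671, 0.0133 to 0.211), with 45 and 3 UMIs in 6 and 2 cells. Ccr7 had a ratio of 0.0368, 0.00433 to 0.140, and 0.0436 with Xcr1. Thbs1, a matrix protein, Cxcl2 and Fabp5, a fatty acid carrier, had ratios of 14.7, 8.64 and 4.36, with 43 of 96, 295 of 423 and 36 of 109 combination UMIs in 1 cell. With Xcr1 Cxcl2 and Fabp5 had ratios of 10.9 and 3.75, and Thbs1, at 0 in anti-PD-1, was at least 12.8-fold higher by a floor of 3 counts per library. Ccl5 and Mmp12 had ratios of 0.169 and 0.0993 in all cells and 1.89 and 1.74 with Xcr1.

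Against anti-PSGL-1, 15.4% of 2777 genes were higher in the combination and 5.29% lower, and with Xcr1 12.2% and 5.84%. Ly6a, which encodes the interferon-inducible surface protein Sca-1, was at 199.6, 1159, 94.4 and 1030.5 CPM over the 4 libraries (combination over anti-PSGL-1 10.9, 9.14 to 13.1) and at 109, 276, 55.7 and 376 CPM with Xcr1 (ratio 6.76, 5.21 to 8.83). It was high in both libraries with anti-PD-1, in T-gated cells too, at 809, 1249, 655 and 1354 CPM. Irg1, the enzyme that makes itaconate, had 3 and 49 UMIs, 22 of the latter in 1 cell, and 3 and 36 with Xcr1. Interferon-gamma genes were 15 higher and 0 lower of 22, and with Xcr1 8 higher and 0 lower of 16. Hspa1a, Hist1h2ap and Gpr183 had ratios of 0.314, 0.151 and 0.243, and 0.373, 0.198 and 0.273 with Xcr1.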

How the data were processed

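Single-cell RNA was measured in 4 libraries, 1 per treatment. The deposited values are UMI counts per gene and barcode, not normalized, which the authors made with Cell Ranger 3.1.0 on mm10, per the submitters' processing notes. Barcodes with fewer than 300 genes, over 10% of UMIs from mitochondrial genes or over 60000 UMIs were left out. cDC1, cDC2-gated, migratory (1 or more UMIs each of Fscn1 and Ccr7), and T-gated cells (2 or more Cd3 UMIs) were taken by their transcripts. The members, gene lists and markers were chosen with earlier results of these data known. The Xcr1-detected subset and the genes of the ratio plot were chosen after their values were seen.

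Counts were summed per library and cell group. Cell groups were compared with edgeR 4.0.16 in R 4.3.3 (quasi-likelihood test, TMM, library block, Benjamini-Hochberg adjustment over all genes kept by its filter), checked on simulated counts, with DESeq2 1.42.0 as an alternative. The SD given beside a fold change is that of the log2(CPM + 1) differences over the 4 libraries. Where a group was at 0, the fold is a bound from 3 counts. Levels between libraries are ratios of CPM with exact conditional 95% intervals. Intervals cover counting error only.

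Doublet scores came from Scrublet in scanpy 1.11.5. Its own threshold called 1, 84, 0 and 42 cells, listed as in the report, and was not used. The highest scores, 0.8% per 1000 cells, were left out as an alternative, which took 6, 0, 3 and 2 cDC1.

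Named genes were, per treatment comparison, the 6 higher and 6 lower ranked by the interval bound nearest to 1. Between cell groups they were the 12 higher and 8 lower with the largest fold change in all 4 libraries. List members came next, up to 3 each way. Of these the text gives some, others are not reported here, and Cd74, Ciita, H2-Aa, Selplg and other genes of the lists were added after their values were seen. Gate genes, T cell receptor, immunoglobulin, mitochondrial, ribosomal and unnamed genes were left out. Other alternatives were the UMI minimum, the level and fold thresholds, thinning, leaving out dividing cells or cells with other types' transcripts, and leaving out each library.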

Additional observations from a re-analysis of the deposited data

Results flagged for a closer look

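Adding anti-PD-1 to a library without it can be read from anti-PD-1 over IgG and from the combination over anti-PSGL-1, which share no library. In 5 named genes the cDC1 ratios lay past 1.5-fold in opposite directions, and this difference was not tested. Over all measured genes 12% were higher and 4.07% lower in the first comparison, and 15.4% and 5.29% in the second. Only named genes were searched, some of them chosen by the size of their ratio, so the count does not say how common this is. Hspa1a, a heat shock gene, had a ratio of 3.34 in the first comparison and 0.314 in the second. Hspa1b had 2.06 and 0.365, and Dnajb1, a co-chaperone, 1.80 and 0.321. The other two lay the opposite way: Kcnq1ot1, a long non-coding RNA, had 0.251 and 1.95, and Dynlt1f, a dynein light chain gene, 0.236 and 1.68. In anti-PD-1 196 of the 243 Hspa1a UMIs were in cells with Clec9a and no Xcr1, and with Xcr1 required the ratio to IgG was 0.808.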

How the results depend on the processing

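The share of cDC1 moved most with depth. Among kept cells of at least 2000 UMIs, thinned to 2000, it was 0.882%, 0.364%, 0.550% and 0.400%. The order is the control, either single antibody (PD-1 first) and the combination. With 3 or more UMIs of Xcr1 and Clec9a it was 1.35% in IgG and 0.799% in the combination. With Xcr1 required it was 1.42%, 0.725% and 0.799% in IgG, anti-PD-1 and the combination. Without cells that held Siglech, or 3 or more UMIs of Ly6c2 and Fcgr1, it was 0.649% in anti-PD-1 and 0.685% in the combination. These last 2 alternatives were chosen after seeing the data.

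The number of genes past the fold followed its definition. In the order anti-PD-1, anti-PSGL-1 and the combination against IgG, then the combination against anti-PD-1 and against anti-PSGL-1, it was 442, 178, 454, 427 and 575 as reported, 173, 79, 216, 159 and 302 at a minimum of 100 CPM, 1182, 592, 1136, 1288 and 1302 at 20 CPM and 160, 48, 180, 114 and 191 at 2-fold. Without cells that held Siglech or Ly6c2 and Fcgr1 the combination against anti-PD-1 gave 652.

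Against cDC2-gated cells DESeq2 called 1463 genes and edgeR 2320. Leaving out 1 library at a time gave 1602 to 2136 against cDC2-gated and 1751 to 2721 against migratory cells. The library is the block of both tests: with no replicate block 855 genes were higher and 978 lower against cDC2-gated cells, and 1244 and 1276 against migratory cells. Each fold change of a named gene between cell groups was taken again under each alternative. Of these values 1320 kept their call, 47 lost the call and 22 gained it, and no called gene changed direction.

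Medians of some gene lists between libraries were taken again under each alternative: 283 values stayed within the limit set and 32 moved beyond it. Of the 32, 10 came without cells that held Siglech or Ly6c2 and Fcgr1, and 8 with Xcr1 required. Each log2 ratio of a named gene was taken again too. Of these values 470 stayed within the interval of the main ratio and 152 moved beyond it. Another 25 changed sign, which was counted only for main ratios past 1.5-fold. The cause was not tested. With Xcr1 required, anti-PD-1 against IgG gave Il1rn -1.25, Clec4n -1.61, Gbp2 -0.79 and Hspa1a -0.31, and anti-PSGL-1 against IgG gave Cxcl2 -0.10, Gbp2 -0.11 and Ly6c2 0.13. The combination with Xcr1 gave Lpl -0.057, Cxcl10 -0.63 and Isg15 -0.065 against IgG, and Ccl5 0.92 and Mmp12 0.80 against anti-PD-1. Without cells that held Siglech or Ly6c2 and Fcgr1, Cxcl2 was -0.058 in anti-PSGL-1, the combination against IgG gave Ptgs2 -0.62, Cd274 -0.45 and Isg15 -0.78, and Fabp5 was -0.73 against anti-PD-1. With 3 or more UMIs of Xcr1 and Clec9a, Gbp2 was -0.25 in anti-PSGL-1, and Lpl -0.080 and Isg15 -0.033 in the combination against IgG. Without dividing cells, Cxcl2 was -0.19 and Hist1h1b -0.042 in anti-PSGL-1 and Ccl7 0.16 in the combination. Without cells holding transcripts of other types, Cxcl2 was -0.21 in anti-PSGL-1 and Thbs1 -0.40 in the combination against anti-PD-1.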
